A study of Mus musculus with 2 samples.

Results

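The Tex14 and Mtmr4 locus on mouse chromosome 11 held 9 of the 1404 Aiolos peaks of natural killer (NK) cells. Of these, 5 were assigned by the authors to Tex14, 1 to Mtmr4, and 1 each to Ska2, Rad51c and Tspoap1. The members are the peaks that carry the symbol Tex14 or Mtmr4, together with every peak within 300 kb of either gene, a stretch of 811 kb from 87105013 to 87916302 (mm10). Tex14 was chosen by its number of peaks, the highest of the 1276 genes in the list, so that number is a description and supports nothing. The label of the locus names both genes, and the data go partly against it. The Mtmr4 peak lay on the Mtmr4 start, whereas none of the 5 peaks assigned to Tex14 lay on the RefSeq start of Tex14. Each of these 5 lay on or beside a small nuclear RNA (snRNA) gene inside the Tex14 gene. However, 1 of the 5 also lay beside the start of the Tex14 transcript used by the authors, who annotated it as promoter.

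The peaks come from CUT&RUN, in which an antibody brings a nuclease to a protein on chromatin and the released DNA is sequenced. There was 1 library made with an antibody against Aiolos, the zinc finger factor encoded by Ikzf3, and 1 library made with no primary antibody. Both came from spleen NK cells grown in complete IMDM with 50 ng/ml interleukin-15 to 500000 cells or more. The labels used here give no genotype, strain, sex or age for the mice, and do not say how many mice were used or how pure the cells were. Since each group had a single library, no spread between replicates could be measured and no test was made. Every interval of a fold comes from the 95% exact Poisson interval of the tag count at the summit, with the background held fixed. It covers counting error only. Across the list a summit held 4 to 63 tags with a median of 8, and across the 9 peaks of the locus 7 to 17. Of 12 NK marker genes 6 had an assigned peak (Klrb1c, Klre1, Klrd1, Gzma, Gzmb and Il2rb), against 1178 of 21896 protein-coding genes (5.38%). Of these 6 genes, only Gzmb and Klre1 had a peak that the authors annotated as promoter. Of the T cell, B cell and myeloid markers 0 of 6, 0 of 5 and 0 of 5 had an assigned peak, counts too small to tell from 5.38%. The marker lists were chosen with earlier results of these data known, so nothing is read from these shares. Peaks are not expression, so these counts do not show which cells were present.

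TEX14 is a protein of germ cells that is needed for the intercellular bridges that keep dividing germ cells joined. It acts in the testis by keeping cytokinesis from being completed. MTMR4 is a myotubularin phosphatase that removes phosphate from phosphatidylinositol 3-phosphate on endosomes and acts in the traffic of membrane receptors. U1 snRNA recognises the start of introns in the spliceosome. U3 RNA guides the cutting of the ribosomal RNA precursor in the nucleolus, and the gene table files its genes under snRNA. Both RNAs are made from many gene copies and are used in every nucleated cell.

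Read along the chromosome, the locus had a peak at its left edge, a group of 6 peaks from the Rad51c start into Tex14, a peak at Mtmr4 and a peak at Tspoap1. The Ska2 peak lay 295 kb before the Rad51c peak. The Rad51c peak was followed after 18.2 kb by the first Tex14 peak, and the 5 Tex14 peaks spanned 49.7 kb, from 87422649 to 87472300. That is 32.9% of the 151 kb Tex14 gene: the group began 17.6 kb after the gene start and ended 83.5 kb before the gene end, with no peak in that last stretch. From the last Tex14 peak to the Mtmr4 peak there were 120 kb without a peak, and from there to the Tspoap1 peak 167 kb. The Ska2 peak was just inside the limit of 300 kb, at 296 kb from Tex14. The nearest peaks outside it were assigned to Srsf1, 431 kb beyond Mtmr4 and with a fold of 8.05, and to Vmp1, 818 kb before Tex14 and with a fold of 10.5.

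**Figure D1:**
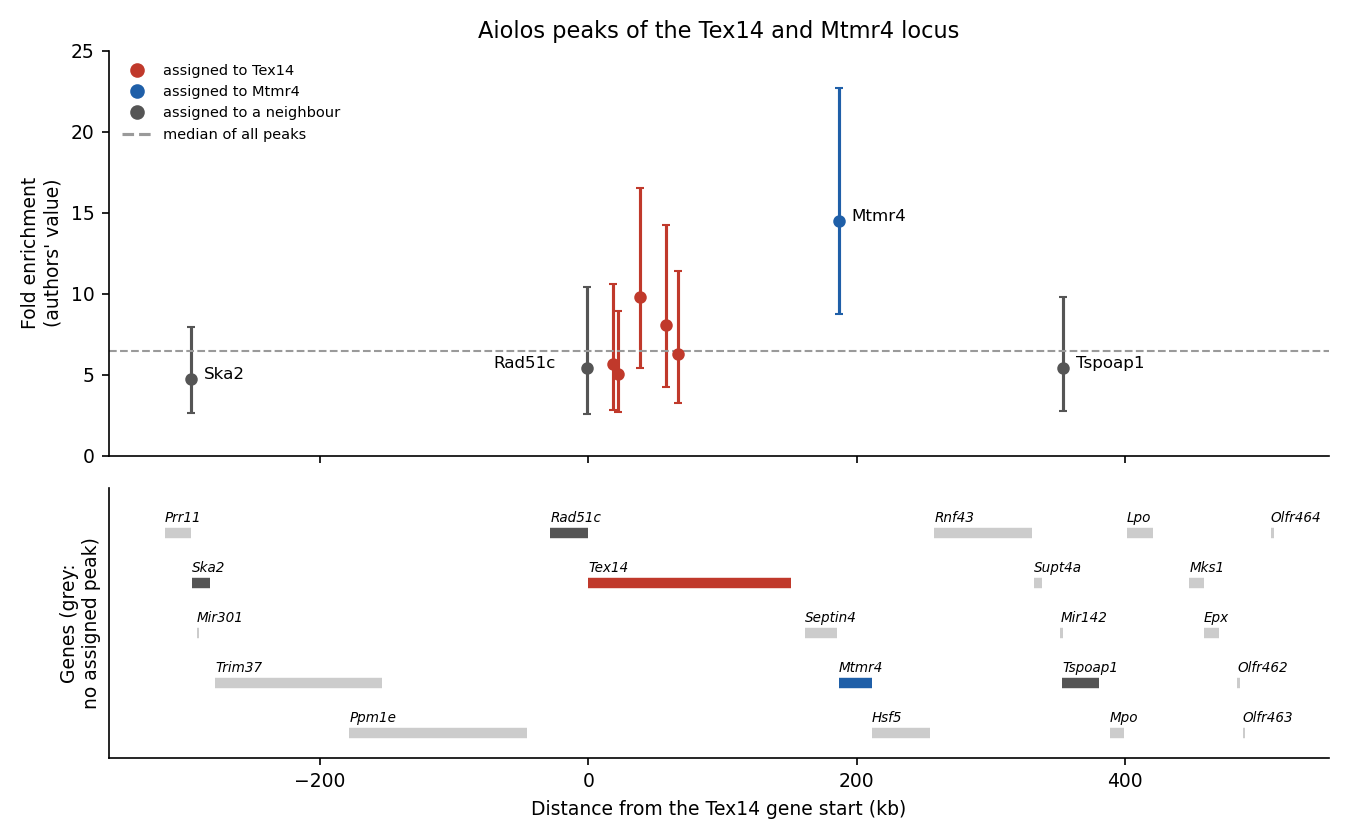
Fold enrichment of the 9 peaks against distance from the Tex14 gene start in kb, with 95% exact Poisson counting intervals, above the protein-coding and miRNA genes of the locus (Mir142b, on the other strand of Mir142, is left out). The Mtmr4 peak stands highest at 14.5-fold, and the 5 Tex14 peaks form a tight group in the part of Tex14 near its start; the dashed line is the median of all 1404 peaks, 6.44.

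Tex14 itself had no peak on its RefSeq start. The start of Tex14 in the RefSeq tables (87405065) faces a start of Rad51c (87404954) 111 bp away on the other strand. The nearest peak edge was 604 bp from that Tex14 start and belonged to the peak assigned to Rad51c. The authors measured the Tex14 distances from another transcript, whose start at 87427591 lies 22.5 kb inside the gene. Seen from that transcript, 1 of the 5 peaks was at a promoter, with its edge at -193 bp. In the authors' annotation 2 of the others lay in single-exon transcripts and 2 in intron 2 of 30 of a longer Tex14 transcript. All 5 had their centre inside the Tex14 gene of the RefSeq table, and 3 did so inside the authors' transcript.

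Taken in order, the 5 peaks matched 5 different snRNA genes. The first, at 87422649 to 87423526, covered the whole of Rnu1a1, a U1 gene at 87422867 to 87423030, and its summit lay 429 bp beyond the gene. The second, at 87427063 to 87427398, lay 184 bp from Gm22068, a snRNA gene with the same length as Rnu1a1 (164 bp). It is also the peak with its edge at -193 bp from the authors' Tex14 start. It was thus about as near to that start as to Gm22068. The third, at 87443360 to 87444127, overlapped Rnu3b1, a U3 gene, and ended 347 bp before Gm23137, a further snRNA gene. It also overlapped the end of LOC115487798, a long non-coding RNA gene at 87441465 to 87443454 that contains Rnu3b1. The fourth, at 87462537 to 87462930, lay 34 bp from the U3 gene Rnu3b4. The last, at 87472037 to 87472300, lay 455 bp from the U3 gene Rnu3b2. All 5 summits were beyond the gene on the side of higher coordinates, 130 to 587 bp past its end. The gene table gives no strand for these genes, so it is not known here whether that side is upstream.

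The match also reads from the genes. Tex14 contains 7 snRNA genes and 6 of them had a peak within 1000 bp. The exception was Rnu3b3, a U3 gene 4.50 kb from the nearest peak, although the 4 U3 copies Rnu3b1, Rnu3b3, Rnu3b4 and Rnu3b2 stand within 28.3 kb and are 215 to 218 bp long. Of all 1004 snRNA genes in RefSeq, 26 (2.59%) had a peak that near. Over the whole list 27 of 1404 peaks (1.92%) lay within 1000 bp of a snRNA gene, and the 5 Tex14 peaks are 5 of these 27. The distance to snRNA genes was not named in the rule that chose Tex14, but it was looked at after the peaks had been seen. Since Tex14 was chosen for its many peaks, any gene inside it was more likely to have a peak nearby. That choice fixes the 6 of 7 in part, so nothing is read from these shares, and no test was made. How the authors treated reads that match several copies is not given in the sources used here, and the sequences of these snRNA genes were not analysed here, so how tags were shared among copies is uncertain.

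**Figure D2:**
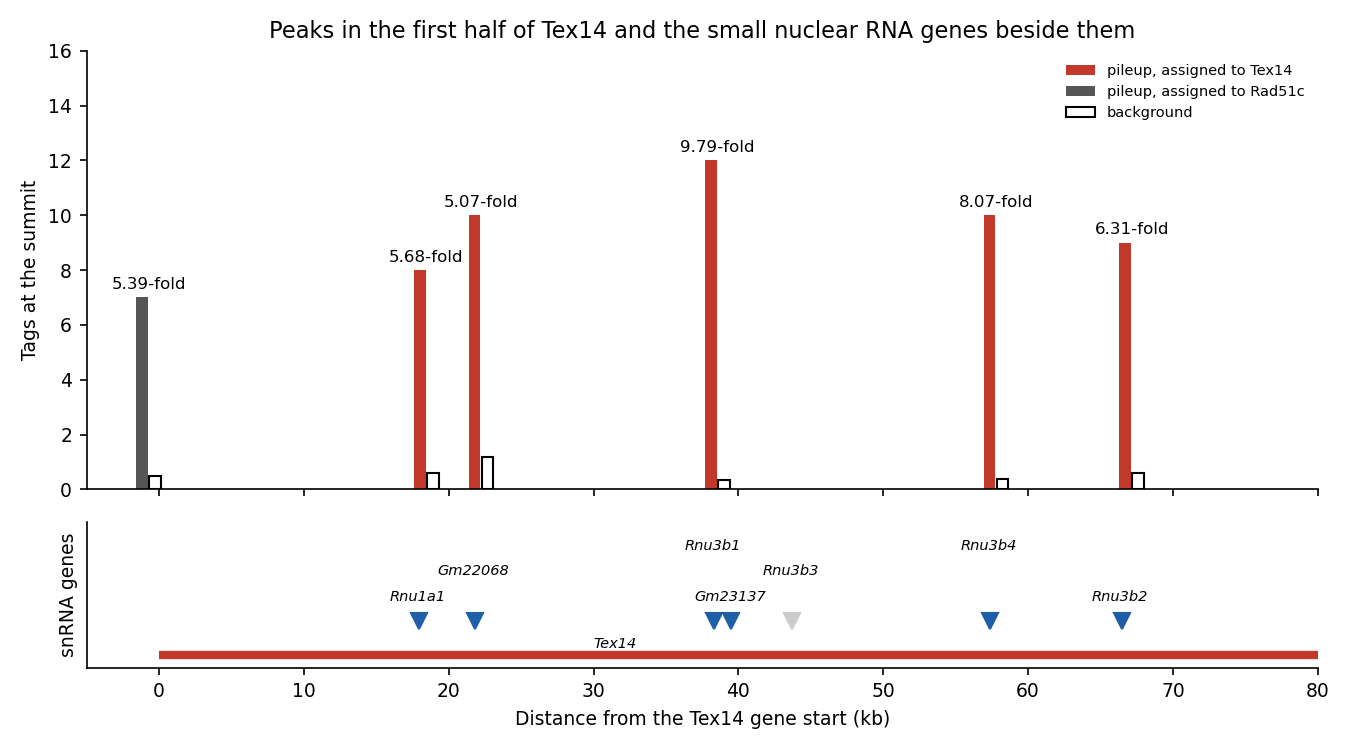
Tags at the summit (filled bars) and background (open bars, drawn beside them) for the Rad51c peak and the 5 Tex14 peaks against distance from the Tex14 gene start in kb, with the fold above each pair, and the snRNA genes as triangles below (blue within 1000 bp of a peak, grey not). Each Tex14 peak stands over a blue triangle, and Rnu3b3 in grey has none.

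In strength the Tex14 peaks were ordinary members of the list. The Rnu1a1 peak had 5.68-fold enrichment (2.81 to 10.6) from 8 tags over a background of 0.586. The peak beside Gm22068 had 5.07-fold (2.67 to 8.93) from 10 tags over 1.17. The Rnu3b1 peak was the strongest of the group with 9.79-fold (5.42 to 16.5) from 12 tags over 0.327. These 3 intervals overlap, so the order among them was not resolved at this depth.

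The Rnu3b4 peak had 8.07-fold (4.25 to 14.2) from 10 tags over a background of 0.364. The Rnu3b2 peak had 6.31-fold (3.23 to 11.4) from 9 tags over 0.586. Of the 5 folds 2 were above the median of all peaks, 6.44, and the median of the 5 was 6.31. The Rnu3b1 peak ranked 148 of 1404 by fold and the other 4 between 338 and 1057. The -log10 q values were 11.3 and 7.98 for Rnu3b1 and Rnu3b4 and 3.29 to 4.86 for the other 3. The Tex14 peaks had a median width of 394 bp (264 to 878) against 265.5 bp over the list. The Rnu1a1 and Rnu3b1 peaks were wider than 98.4% and 96.7% of all peaks. The others were nearer the middle, wider than 49.1% to 68.9%.

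The background beneath the group was above the middle of the list. All 5 Tex14 peaks had a background over the list's median of 0.267 tags, as had 8 of the 9 peaks of the locus and 699 of all 1404. At 3 of the Tex14 peaks the background was a whole multiple of 0.586 tags, a step seen in the solved values whose source was not tested, once for Rnu1a1 and Rnu3b2 and 2 times that for Gm22068. Such multiples were found at 386 of the 1404 peaks (27.5%). For a given number of tags the fold is lower where the background is higher, by construction of the fold, and the part of the background in the Tex14 values was not tested.

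**Figure D3:**
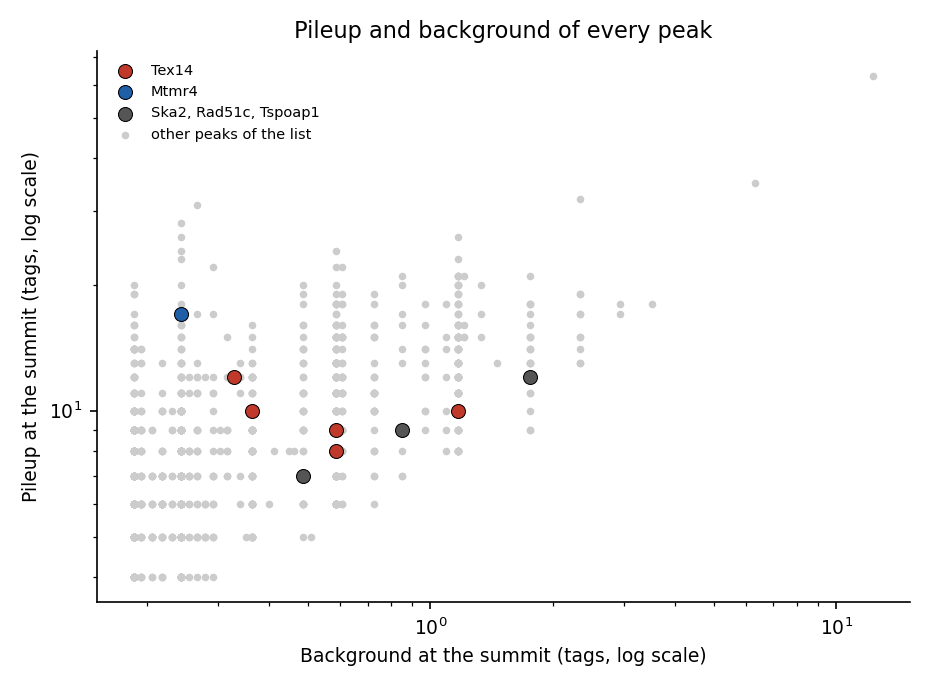
Pileup against background at the summit, in tags on log scales, for all 1404 peaks, with the 9 peaks of the locus coloured. Mtmr4 has 17 tags over a low background of 0.242, whereas Tex14 peaks have 8 to 12 tags over backgrounds of 0.327 to 1.17.

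The Mtmr4 peak lay on a gene start. It ran from 87591804 to 87592378 over the gene start, 575 bp wide, with its summit at 87591998, beside the RefSeq start at 87591954. Its fold enrichment was 14.5 (8.78 to 22.7) from 17 tags over 0.242, and its -log10 q was 21.7. It ranked 15 of 1404 by fold, above 98.7% of the list. Its interval overlapped those of all 5 Tex14 peaks, though of the peak beside Gm22068, with an upper bound of 8.93, only narrowly. The nearest snRNA gene was 120 kb away. Septin4, a gene for a filament-forming GTPase, ended 1.26 kb from the peak, with its nearest RefSeq promoter start 10.7 kb away. Of the 14 genes of the myotubularin family and its pseudophosphatases, Mtmr4 alone had an assigned peak (7.14%), against 1178 of 21896 protein-coding genes (5.38%). Mtmr4 was in the rule, so that count says nothing of the family.

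Rad51c and Ska2 had promoter peaks beside the start of a neighbour on the other strand. RAD51C acts in repair of DNA by homologous recombination. Its peak, at 87404247 to 87404461, was the weakest of the locus in tags, with 5.39-fold (2.57 to 10.4) from 7 tags over 0.485. SKA2 is a subunit of the complex that holds kinetochores on spindle microtubules. Its peak, at 87108984 to 87109442, had the lowest fold of the locus, 4.72 (2.61 to 7.97), though from 12 tags, and its background of 1.76 tags was higher than at 98.4% of all peaks. Prr11, a proliferation gene, starts 547 bp from Ska2 on the other strand, and the peak edge was 270 bp from that start. With Mtmr4 and the Tex14 peak beside Gm22068, these made 4 of 9 peaks with their centre within 1000 bp of the annotated start. That is 44.4% (95% exact Clopper-Pearson interval 13.7 to 78.8, as if the peaks were independent), against 64.8% of the whole list. Of the 9 peaks, 5 belong to Tex14, a gene chosen for its peak count, so nothing is read from this share. Measured from the peak edge, unlike the 64.8%, the share was 55.6%. That adds the Tspoap1 peak, which the authors also annotated as promoter.

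The promoter sequences show where these peaks sit. RefSeq (GRCm38.p6) gives windows of 250 bases before to 50 after a start for Ska2, Rad51c and Tex14. The Ska2 window (chr11:87109011-87109310, plus strand) lies wholly in the Ska2 peak and holds its summit. The Rad51c window (chr11:87404457-87404756, minus strand) belongs to the Rad51c start nearer to the peak and shares 5 bp with it. The Tex14 window (chr11:87404815-87405114, plus strand) has no peak and is shown for contrast. Capitals mark the letters CCAAT on either strand, known as the binding sequence of NF-Y, and TGACGTCA, its own complement, known as the CRE bound by bZIP factors.
Ska2: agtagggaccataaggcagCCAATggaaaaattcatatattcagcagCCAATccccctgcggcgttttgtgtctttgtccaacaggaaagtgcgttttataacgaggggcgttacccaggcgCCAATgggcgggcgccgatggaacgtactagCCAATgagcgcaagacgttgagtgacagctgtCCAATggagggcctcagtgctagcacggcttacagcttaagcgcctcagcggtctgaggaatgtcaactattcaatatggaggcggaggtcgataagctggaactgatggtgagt
Rad51c: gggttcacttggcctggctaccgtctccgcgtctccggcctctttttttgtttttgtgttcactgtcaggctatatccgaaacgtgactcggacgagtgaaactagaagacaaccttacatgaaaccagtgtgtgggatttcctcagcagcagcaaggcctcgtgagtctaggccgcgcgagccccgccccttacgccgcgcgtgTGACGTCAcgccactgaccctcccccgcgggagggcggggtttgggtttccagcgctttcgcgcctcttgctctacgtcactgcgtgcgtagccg
Tex14: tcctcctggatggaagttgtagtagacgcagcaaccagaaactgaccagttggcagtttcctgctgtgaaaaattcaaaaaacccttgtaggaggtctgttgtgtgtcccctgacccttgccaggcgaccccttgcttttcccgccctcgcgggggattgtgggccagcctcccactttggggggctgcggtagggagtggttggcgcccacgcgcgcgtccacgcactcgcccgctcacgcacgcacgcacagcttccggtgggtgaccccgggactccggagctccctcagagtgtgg

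The Ska2 window held CCAAT 5 times, and all 5 were upstream of the start. Of the 845 promoter windows that overlapped an Aiolos peak, 53.0% held CCAAT or ATTGG and 2.13% held it 5 times or more, against 37.4% and 0.271% of all 32851 windows. The Rad51c window held TGACGTCA once, with its first base at -45 bp from the start, which is outside the Rad51c peak. Windows that overlapped a peak held TGACGTCA in 3.91% of cases, against 1.79% of all windows. None of the 3 windows held TGGGAA (or TTCCCA), the core known for Ikaros family factors, or TGACTCA (or TGAGTCA), the AP-1 site. TGGGAA was in 21.3% of the windows with a peak, against 25.6% of all windows, and TGACTCA in 3.31%, against 5.20% of all. The windows include several per gene where a gene has several starts, and no test was made of these shares. CCAAT and TGACGTCA were picked after the sequences had been read, and a match of letters is not a bound site.

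The Tspoap1 peak lay close to the miR-142 genes. It ran from 87759179 to 87759733 with 5.41-fold enrichment (2.77 to 9.78) from 9 tags over 0.849. The authors assigned it to Tspoap1, which encodes a protein that binds the mitochondrial translocator protein TSPO, at -808 bp from the transcript start at 87760541. Its summit lay inside the longer Tspoap1 gene of the RefSeq table, which begins at 87758194. The hairpin of Mir142 (87756864 to 87756927, plus strand) was 2.25 kb before the peak, which was on its downstream side, and Mir142b overlaps it on the other strand. miR-142 is a miRNA abundant in blood cells. Mir301, which lies within Ska2, was 3.56 kb from the Ska2 peak. The mature RNAs are shown with the seed, bases 2 to 8, in capitals, to show which miRNAs lie beside these peaks.
mmu-miR-142a-5p: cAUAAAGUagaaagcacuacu
mmu-miR-142a-3p: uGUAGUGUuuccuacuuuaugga
mmu-miR-301a-3p: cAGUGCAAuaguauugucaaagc

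Most protein-coding neighbours had no peak. Of the 19 protein-coding genes of the locus 5 had an assigned peak (26.3%), against 5.38% of all protein-coding genes, but the choice of the locus by its peaks fixes this count in part and nothing is read from it. The other 14 included Trim37, a ubiquitin ligase gene (nearest peak 17.3 kb away), Ppm1e, a phosphatase gene (45.3 kb), Supt4a, a transcription elongation factor gene (15.6 kb) and Rnf43, a ubiquitin ligase gene of Wnt signalling (23.6 kb). Hsf5, a heat shock factor gene of germ cells, was 24.0 kb from a peak. The peroxidase genes of granulocytes and secretions were farther, with Mpo at 34.1 kb, Lpo at 46.7 kb and Epx at 104 kb. The cilium gene Mks1 was 93.4 kb away, and the olfactory receptor genes Olfr462, Olfr463 and Olfr464 were 129 to 154 kb away. No RNA was measured in these files, so which of these genes were active in the NK cells was not tested. Among the neighbours, U1, U3 and miR-142 RNAs are known to be made in blood cells, and TEX14 and HSF5 are known from germ cells. Whether this bears on the peaks was not tested, and the other neighbours are not sorted this way.

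Tex14 was set beside genes with nearly as many peaks. Dad1, Fosb, Klrb1b and Per1 had 4 peaks each. None of these genes' peaks lay within 1000 bp of a snRNA gene, and the nearest such gene was 58.3 kb away, from a Fosb peak. The 49.7 kb of the Tex14 peaks compares with 5.64 kb at Per1, 7.47 kb at Klrb1b, 19.5 kb at Fosb and 166 kb at Dad1. The Tex14 folds of 5.07 to 9.79 lay within the 4.61 to 19.3 of these 4 genes. At Tex14 1 of 5 peaks was at a promoter, against 4 of 4 at Per1, 1 of 4 at Fosb, 0 of 4 at Dad1 and 0 of 4 at Klrb1b.

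The stretch most like the Tex14 group was on the same chromosome, at 101627107 to 101659472. Its 5 peaks were assigned to Rdm1 (3) and Arl4d (2), and all 5 lay within 1000 bp of a snRNA gene, 2 of them beside Rnu2-10, a U2 gene. The Tex14 folds of 5.07 to 9.79, with 8 to 12 tags, compare with 4.19 to 8.38, with 7 to 17 tags, there. Together these 2 stretches hold 10 of the 27 peaks near snRNA genes. The 5 in Tex14 had a median fold of 6.31, a median width of 394 bp and a median background of 0.586 tags, against 7.10, 494.5 bp and 0.586 tags for the other 22 such peaks. Summits lay at higher coordinates than the gene in 5 of 5 in Tex14, against 12 of 22 elsewhere. In the Rdm1 and Arl4d stretch, summits lay 37, 354, 274 and 940 bp past the gene end. The summit beside Gm23971 lay on the other side there, at -658 bp. Strands were not compared, so nothing is read from the side. Of the 15 genes filed as snRNA whose symbol begins with Rnu, 8 had a peak within 1000 bp. Over all 1004 snRNA genes it was 26 (2.59%). The choice of Tex14 by its peaks fixes the count of 8 in part, and nothing is read from it. Of these 8 genes, 4 lay in Tex14. The others were Rnu3a, Rnu12, Rnu5g and Rnu2-10. Rnu3a, a U3 gene on chromosome 10, had a peak of 7.33-fold (3.75 to 13.3) with the summit 59 bp past its end, and the U1 genes Rnu1b1, Rnu1b2 and Rnu1b6 on chromosome 3 had none within 96.3 kb.

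**Figure D4:**
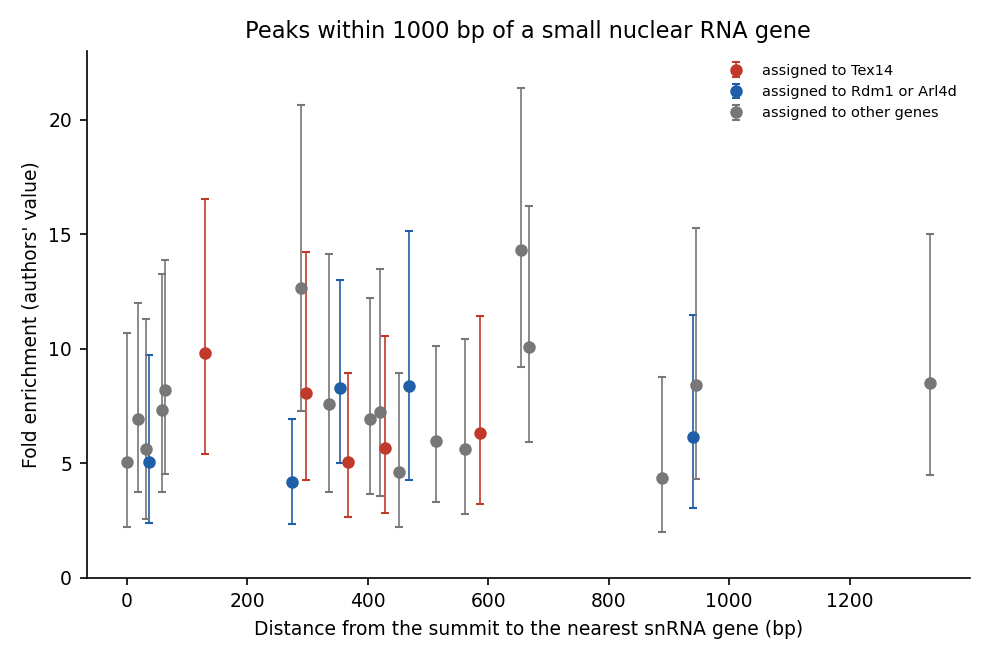
Fold enrichment with 95% exact Poisson counting intervals against the distance in bp from the summit to the nearest snRNA gene, for the 27 peaks whose edge was within 1000 bp of one. The 5 Tex14 peaks lie between 130 and 587 bp and within the range of the other 22 folds, 4.19 to 14.3.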

How the data were processed

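CUT&RUN peaks from 1 Aiolos antibody library, with 1 library without primary antibody, were analysed; reads and coverage were not. Per the submitters' processing notes, mm10 was the build, and SAMtools, Picard, Bowtie2 and MACS2 were among the tools. Thresholds, duplicate handling and the control used for peaks: not given in the sources used here. Per the file headers, the authors deposited for each peak a signal value, taken here as the fold enrichment, the -log10 p and q, and a score. These are the authors' values; coordinates are 1-based. Pileup and background in tags were solved from the fold, taken as pileup plus 1 over background plus 1, and the Poisson -log10 p, with an error of at most 1.75e-05, and the solver was tested on simulated data. Genes, promoters and miRNAs came from RefSeq tables of GRCm38.p6, the assembly of mm10, and all 1404 gene identifiers matched. Distances run from the peak edge; promoter peaks have their centre within 1000 bp of the annotated start, and the background of a peak counts as a multiple of 0.586 within 0.0002 tags. Chromosome ends for the window counts were the last gene ends. Named genes are the members, their neighbours, the genes with 4 or more peaks, and fixed lists; 1 gene that this rule names is not reported here. Members and lists were chosen with earlier results of these data known, and the snRNA comparison, the stretches and the motifs CCAAT and TGACGTCA after values or sequences were seen. Python 3.11.15, pandas 2.3.3 and scipy 1.17.1 were used.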

Additional observations from a re-analysis of the deposited data

How the results depend on the processing

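Of 32 alternatives 17 left a count within 1.5 times its main value, or a share within its counting interval. The 727 peaks with a -log10 q no lower than the median of 5.32 held 3 of the 9 peaks of the locus (Rnu3b1, Rnu3b4 and Mtmr4) and 2 of the 5 Tex14 peaks, the 2 inside Tex14 and near a snRNA gene. Keeping the 687 peaks above the median fold gave the same counts of 3 and 2. The limits of the authors' transcript, chosen after seeing the data, put 3 Tex14 peaks inside the gene. The alternatives of the snRNA count were also chosen then, and limits of 500 and 3000 bp and distance from the summit each left it at 5. The median fold of the locus was 5.68 against 6.44 elsewhere, a difference of -0.18 on the log2 scale. It turned to 0.28 among those 727 peaks (the filter selects on strength), to 0.16 for the Tex14 and Mtmr4 peaks alone, and to 0.32 when pileup replaced fold (cause not tested), so no direction is given for it. By peak count the locus ranked 14 among 6697 windows of its length, 40 with the stricter q, 34 above the median fold and 56 among 1400 windows that start at each peak; windows overlap, and the locus was chosen for its peaks. Setting the limit to 100 or 500 kb gave 7 or 10 peaks. With 7 to 17 tags a summit, folds within the locus could mostly not be ranked. No paired analysis was possible because each group is a single library.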

Other observations

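Other stretches were as dense as the Tex14 peaks. With the span of 49.7 kb, 9 stretches of the genome held 5 or more peaks. Only the Tex14 stretch and the Rdm1 and Arl4d stretch had a peak within 1000 bp of a snRNA gene. The densest held 6 peaks within that span: histone genes H2bc13, H2bc14 and H4c11 on chromosome 13, the genes Sirt2, Rinl and Hnrnpl on chromosome 7, and Vasp, Fosb and Ercc1 on the same chromosome, where a run of overlapping windows held 7. A second histone stretch on chromosome 13, with H3c3, H4c2, H4c1 and H3c1, held 5.

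The listed genes of germ cells and of cell abscission had no assigned peak. Of 16 germ cell genes, among them Ddx4, Dazl, Sycp1 and Tex15, 0 had one, and of 8 genes of cell abscission, among them Cep55, Tsg101 and Pdcd6ip, 0 had one, against 5.38% of all protein-coding genes. The lists are short, so a count of 0 carries little precision.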
